A study of Drosophila melanogaster with 110 samples.

Results

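Psc is a subunit of Polycomb repressive complex 1 (PRC1), and its chromatin association after depletion of the hnRNP M homolog Rump was recorded in 6 ChIP-seq peak lists, 3 from Kc167 cells treated with rump dsRNA (rumpRNAi) and 3 from Kc167 cells treated with GFP dsRNA (control), out of 76 peak lists in the series. Kc167 is a cultured line of embryonic, hemocyte-like Drosophila cells, both groups were treated for 4 days, and the libraries are labelled biological replicates 1 to 3 of each treatment. Together the 6 lists held 3541 peaks. Overlapping peaks (1 bp or more) were joined across the 6 lists, which gave 1321 Psc regions, and each region was described by the lists in which it had a peak. A region was called kept when all 6 lists had a peak there, lost when all 3 control lists and none of the rumpRNAi lists did, and gained in the reverse case. The question was which Psc sites persisted in Rump-depleted cells, which dropped out of the lists, and which genes and partner proteins lay there.

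In flies PRC1 contains Psc or its relative Su(z)2, the Polyhomeotic proteins (Ph), Polycomb (Pc) and the ubiquitin ligase Sce. Polycomb repressive complex 2 (PRC2), with the methyltransferase E(z) and its partner Su(z)12, places the repressive mark H3K27me3, which spreads over domains of many kilobases. Both complexes gather at Polycomb response elements (PREs), short DNA elements bound by proteins that read sequence, among them Pho, Combgap (Cg) and Crooked legs (Crol). In embryos and cell lines the classic PREs lie at homeotic and other developmental regulator genes, which Polycomb proteins keep silent.

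The 300 bases around the summit of the highest Psc peak are shown for 4 kept and 3 lost regions among the highest in rank, so that the sequence at strong persistent sites can be set beside that at sites that dropped out. Capitals mark GCCAT (the core of the Pho motif), GAGAG (the motif of the GAGA factor) and GTGTG (a GT repeat of the kind bound by Cg), each on either strand. The kept windows are chrX:8805786-8806085 at Lim1, chrX:16217021-16217320 at disco, chr3L:6904102-6904401 near Prat2 and chr3L:12692848-12693147 at mirr (dm6, plus strand, 5′ to 3′, sequence from RefSeq).
Lim1, kept: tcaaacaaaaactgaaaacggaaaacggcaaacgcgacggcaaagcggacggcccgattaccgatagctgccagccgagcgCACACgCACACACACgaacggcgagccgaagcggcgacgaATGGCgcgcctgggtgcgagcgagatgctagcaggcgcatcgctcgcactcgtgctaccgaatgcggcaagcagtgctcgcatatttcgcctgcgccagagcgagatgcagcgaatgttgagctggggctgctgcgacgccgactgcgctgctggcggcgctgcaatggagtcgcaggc
disco, kept: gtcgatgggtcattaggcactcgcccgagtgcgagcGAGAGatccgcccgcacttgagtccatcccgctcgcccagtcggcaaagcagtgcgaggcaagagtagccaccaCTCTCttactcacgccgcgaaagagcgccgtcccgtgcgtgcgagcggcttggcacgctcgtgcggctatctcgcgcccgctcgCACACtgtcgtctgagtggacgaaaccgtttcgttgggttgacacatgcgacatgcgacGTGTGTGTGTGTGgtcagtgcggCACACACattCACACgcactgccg
Prat2, kept: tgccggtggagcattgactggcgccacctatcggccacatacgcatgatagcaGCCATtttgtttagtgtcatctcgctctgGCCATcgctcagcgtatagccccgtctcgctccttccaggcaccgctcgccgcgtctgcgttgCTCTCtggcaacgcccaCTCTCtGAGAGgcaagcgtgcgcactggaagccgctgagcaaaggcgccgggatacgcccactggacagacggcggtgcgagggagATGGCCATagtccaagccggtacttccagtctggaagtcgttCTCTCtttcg
mirr, kept: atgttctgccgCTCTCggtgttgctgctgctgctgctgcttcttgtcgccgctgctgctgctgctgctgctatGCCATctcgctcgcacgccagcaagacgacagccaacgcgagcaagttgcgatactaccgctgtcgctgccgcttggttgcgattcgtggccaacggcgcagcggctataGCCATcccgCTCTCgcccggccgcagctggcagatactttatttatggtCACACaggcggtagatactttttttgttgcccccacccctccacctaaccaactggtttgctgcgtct

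The lost windows are chr2L:1970499-1970798 at erm, chrX:1992003-1992302 at Hr4 and chr2L:9608137-9608436 at gcm2.
erm, lost: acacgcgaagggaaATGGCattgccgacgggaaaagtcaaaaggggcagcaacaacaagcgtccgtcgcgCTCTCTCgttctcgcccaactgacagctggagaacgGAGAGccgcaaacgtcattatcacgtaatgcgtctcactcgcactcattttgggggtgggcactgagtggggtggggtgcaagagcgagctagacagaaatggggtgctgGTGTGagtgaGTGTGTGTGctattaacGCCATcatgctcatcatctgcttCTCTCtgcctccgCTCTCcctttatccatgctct
Hr4, lost: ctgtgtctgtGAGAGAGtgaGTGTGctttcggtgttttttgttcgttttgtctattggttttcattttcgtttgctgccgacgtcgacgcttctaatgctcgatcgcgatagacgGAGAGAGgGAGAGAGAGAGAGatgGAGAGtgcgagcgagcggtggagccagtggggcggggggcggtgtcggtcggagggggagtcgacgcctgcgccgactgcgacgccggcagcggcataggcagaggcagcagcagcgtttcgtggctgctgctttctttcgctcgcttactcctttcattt
gcm2, lost: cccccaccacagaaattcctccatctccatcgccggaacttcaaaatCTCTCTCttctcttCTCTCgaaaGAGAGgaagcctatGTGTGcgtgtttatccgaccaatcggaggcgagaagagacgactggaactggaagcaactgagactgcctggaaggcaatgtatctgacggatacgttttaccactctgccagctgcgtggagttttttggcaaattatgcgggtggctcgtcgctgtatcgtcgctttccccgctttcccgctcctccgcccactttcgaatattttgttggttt

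GCCAT was present in 66.7% of 213 kept windows and in 67.3% of 49 lost windows, against 47.6% of all windows of 300 bases in the genome. GAGAG was present in 78.9% of kept and 61.2% of lost windows, against 30.2% of genome windows, and GTGTG in 72.8% of kept and 49.0% of lost windows, against 42.1% of genome windows. The Pho core was therefore as frequent in lost as in kept windows, whereas the share with GTGTG was nearer the genome share in lost windows. Other regions had a peak in all 3 control lists and in 2 or 1 rumpRNAi lists. Their windows held GCCAT in 56.8% and 50.0%, GAGAG in 79.5% and 60.4%, and GTGTG in 61.4% and 56.25%. The share with GCCAT thus did not follow persistence step by step. Over the whole merged regions, which are longer than these windows, the median GC content was 52% in lost and 43.9% in kept regions. In the windows shown above the order was the reverse, with 59.3% to 63.3% in the kept and 51.3% to 58% in the lost ones. A match to 5 letters is a description of the window and not a bound site.

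Fewer Psc peaks were called in every rumpRNAi library than in any control library. The lists held 322, 398 and 372 peaks in rumpRNAi replicates 1 to 3, against 881, 723 and 845 in control replicates 1 to 3. The mean was 364.0 ± 38.6 in rumpRNAi and 816.3 ± 82.8 in control cells (SD, n = 3 each), a log2 difference of -1.17 or 0.446 times the control number (two-sided exact permutation test, p = 0.10, the smallest p that 3 libraries against 3 allow). Peaks covered 192, 287 and 181 kb in the rumpRNAi libraries, against 772, 643 and 398 kb in the controls (log2 difference -1.43, exact permutation p = 0.10). The lists hold no read counts, so the depth behind them is unknown, and a lower signal in every cell cannot be told apart from fewer cells with Psc bound. The lowest -log10 q in a list lay between 6.80 and 7.85 in rumpRNAi and between 6.29 and 6.49 in control libraries, so every control list reached down to lower scores than any rumpRNAi list.

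The control libraries differed among themselves in what they added. The peaks were sorted by overlap with a Ph region (present in at least 3 of the 6 Ph lists) and with an H3K27me3 region (at least 2 of the 4 lists). Peaks with Ph inside H3K27me3, the setting of silent PREs, numbered 274, 308 and 271 in rumpRNAi replicates 1 to 3, against 446, 400 and 479 in the controls, with no overlap between groups (difference of the means -157.3, exact permutation p = 0.10, adjusted p = 0.30 over 3 kinds of peak). Peaks inside H3K27me3 with no Ph numbered 1, 15 and 0 in rumpRNAi libraries, against 347, 230 and 7 in the controls. Control replicates 1 and 2 stood apart in this. Peaks over 2 kb wide covered 5.05, 24.5 and 2.07 kb in rumpRNAi replicates 1 to 3, against 249, 182 and 6.19 kb in control replicates 1 to 3. Control replicate 3 stood apart in another way. Peaks with Ph outside H3K27me3 numbered 38, 56 and 96 in rumpRNAi replicates 1 to 3, against 78, 83 and 345 in control replicates 1 to 3. In both kinds the groups overlapped (exact permutation p = 0.20 for peaks in H3K27me3 with no Ph and p = 0.30 for peaks with Ph outside it). Within each pair of equal replicate number both kinds were fewer in rumpRNAi (exact sign-flip permutation p = 0.25 for each, the smallest that 3 pairs allow). Counting only Psc peaks at a Ph region, the log2 difference in peak number was -0.77, with the groups again apart.

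**Figure D1:**
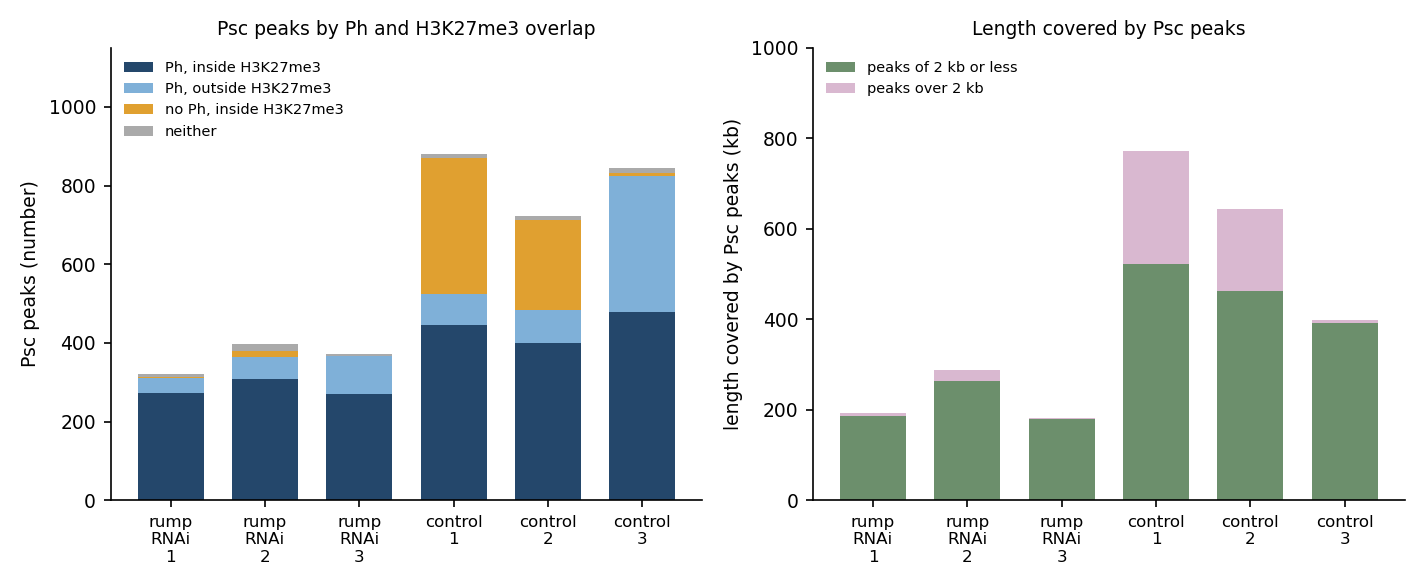
Number of Psc peaks by overlap with Ph and H3K27me3 regions (left, bars stacked) and length in kb covered by Psc peaks of 2 kb or less and over 2 kb (right), for each of 3 rumpRNAi and 3 control libraries. The rumpRNAi lists hold 322 to 398 peaks and the control lists 723 to 881, and the peaks without Ph inside H3K27me3 stand in control replicates 1 and 2.

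Of the 1321 regions, 218 were kept, 50 were lost and 0 were gained, which is 16.5%, 3.79% and 0% of all regions. Over the 363 regions with a peak in all 3 control lists, the rumpRNAi lists had a peak in 3 of 3 for 218, in 2 of 3 for 47, in 1 of 3 for 48 and in 0 of 3 for 50. Another 151 regions were in 2 control lists and 666 in 1 control list with no rumpRNAi peak, whereas 33 regions were in 1 and 1 region in 2 rumpRNAi lists with no control peak. The control lists were longer, and an excess of regions in control lists only follows from that. The turnover counted here thus ran nearly all in one direction. Each single control list contributed to it, since 268, 118 and 280 regions were found only in control replicates 1, 2 and 3. Of the 268 regions only in control replicate 1, 97.4% lay in H3K27me3 and 13.8% at Ph, while of the 280 only in control replicate 3, 18.2% lay in H3K27me3 and 95.7% at Ph.

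Persistence followed rank. The percentile of a peak is its place within its own list by fold enrichment over input, from 0 for the weakest to 100 for the strongest. The median of the mean control percentile was 86.6 for regions kept in 3 of 3 rumpRNAi lists, 67.3 for those in 2 of 3, 57.4 for those in 1 of 3 and 44.8 for those in 0 of 3. Of the 153 regions with a mean control percentile of 80 or more, 152 were kept and 0 were lost. Of the 113 regions between 60 and 80, 56 were kept and 7 lost, and of the 70 between 40 and 60, 7 were kept and 29 lost. Among the 27 regions below 40, 3 were kept and 14 lost. In fold enrichment, lost regions had a median of 5.74, 5.64 and 7.44 in control replicates 1 to 3, against 17.2, 19.3 and 26.2 for kept regions in the same lists.

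**Figure D2:**
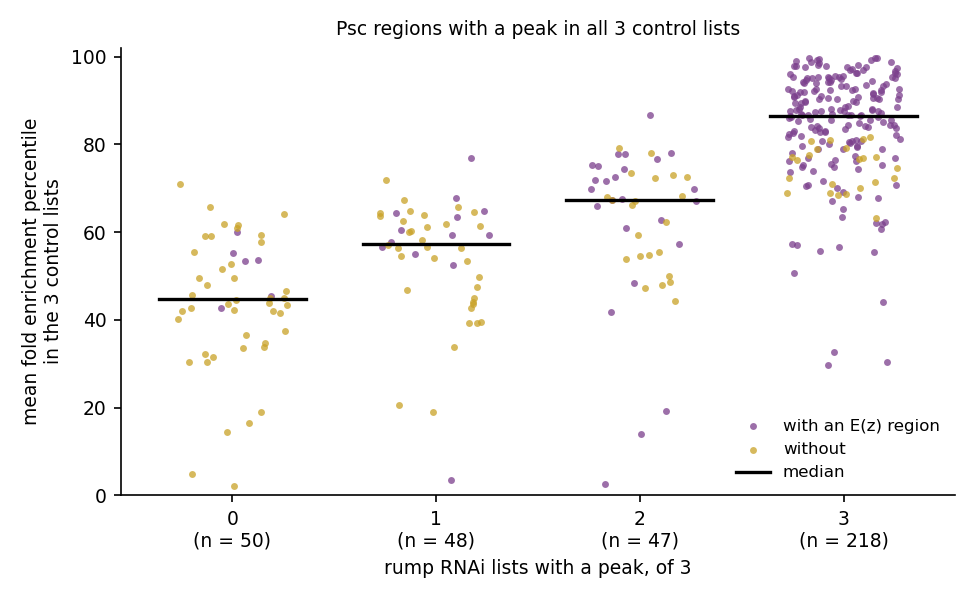
Mean percentile of fold enrichment in the 3 control lists (vertical axis) for the 363 Psc regions with a peak in all control lists, by the number of rumpRNAi lists with a peak there. Each point is a region, coloured by overlap with an E(z) region, and the line is the median, which climbs through 44.8, 57.4, 67.3 and 86.6.

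The rumpRNAi lists were shorter, and most lost regions ranked below that length in the control lists. In control replicates 1 to 3 only 18, 11 and 10 of the 50 lost regions stood above rank 322, the length of the shortest list. When every list was cut to its 322 strongest peaks, 2 regions were lost, 0 gained and 192 kept. The cut takes control peaks below that rank away whatever the rumpRNAi lists hold. A fall in the lost count follows from it, and the cause of the losses was not tested. Lost regions had a median percentile of 56.4, 37 and 48.7 in control replicates 1 to 3 and reached at most 76.8, 66.04 and 78.2, so they stood around the middle of the control lists and not among the strongest peaks. With 1 library left out, between 55 and 148 regions met the lost rule, the most without control replicate 3.

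Kept regions were wide and close to gene starts. The median length of the merged region was 1698 bp for kept and 639.5 bp for lost regions. A kept region joins peaks of 6 lists and a lost region peaks of 3. In control lists alone the median of the mean peak width was 1250 bp for kept and 458 bp for lost regions. A transcription start lay within 60.1% of kept against 24.0% of lost regions. A longer region overlaps a start or a partner more readily, and these shares were not adjusted for length. Exons without a start took 30.0% of lost and 7.80% of kept regions, introns 18.0% and 12.4%, and intergenic sequence 26.0% and 17.4%. Lost regions were often neighbours of kept ones, 18 of 49 on the chromosome arms lying within 5 kb of a kept region, against 45 of 213 kept regions that lay within 5 kb of another. The nearest cases were at vvl, repo, HGTX and tin, where 52, 127, 166 and 173 bp separated the lost region from a kept one.

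Partner proteins were mostly still called where Psc peaks dropped out. A Ph region called in at least 2 of 3 rumpRNAi libraries overlapped 45 of the 50 lost regions, against 49 of 50 for Ph called in control libraries. For Pho the numbers were 48 in rumpRNAi and 48 in control, for Cg 40 and 42, for Crol 45 and 46, and for H3K27me3, called in both libraries of a condition, 41 and 42. The Ph lists varied, and the single rumpRNAi libraries had a Ph peak at between 29 and 48 of the lost regions, against 48 to 50 in single control libraries. The low value was in rumpRNAi replicate 2 of Ph, and replicates 1 and 3 had a Ph peak at 44 and 48 of the lost regions.

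E(z), the catalytic subunit of PRC2, was called more often at kept than at lost regions. An E(z) region called in rumpRNAi libraries overlapped 193 of 218 kept regions (88.5%), 28 of the 47 in 2 of 3 rumpRNAi lists (59.6%), 14 of the 48 in 1 of 3 (29.2%) and 3 of 50 lost regions (6.0%). Called in control libraries, E(z) overlapped 183, 19, 11 and 5 of the same regions. Single E(z) libraries differed at the 50 lost regions, with a peak at 27, 0 and 4 of them in rumpRNAi replicates 1 to 3, against 14, 5 and 3 in controls, and at the 218 kept regions with 208, 167 and 190 in rumpRNAi, against 193, 168 and 183 in controls. In each library the share was higher at kept than at lost regions. Su(z)12 was also called more often at kept than at lost regions, with 90.4%, 55.3%, 45.8% and 54.0% of the 4 sets at a control Su(z)12 region. Among the 3 sets that were not kept it did not fall step by step. Single Su(z)12 libraries had a peak at 6, 17 and 40 of the lost regions in rumpRNAi, against 7, 43 and 24 in controls. By overlap alone, Ph (99.1% and 98.0% of kept and lost), Pho (98.6% and 96.0%) and Crol (88.5% and 92.0%) hardly separated kept from lost regions. Cg (95% and 84%) and H3K27me3 (90.8% and 84.0%) did so only slightly. Overlap depends on list length, which was 214 to 547 peaks for E(z) and 7214 to 11117 for Crol. Within each control list, the median percentile of Ph peaks was 94.1 to 95.5 at kept and 82.5 to 86.2 at lost regions. For Pho it was 96.1 to 96.7 and 84.4 to 88.0, and for Cg 83.7 to 88.2 and 58.4 to 66.0. The ranges for Crol and H3K27me3 overlapped. Psc regions with E(z) were also the highest in Psc rank. Within the band of control percentiles between 60 and 80, 37 of 62 regions with E(z) and 19 of 51 without were kept, and between 40 and 60 these were 7 of 21 and 0 of 49. The E(z) region here was one present in at least 3 of the 6 E(z) lists. The lists share inputs. Psc replicate 1 was called against the same input as E(z) replicate 1, and Psc replicate 2 against the same input as E(z) replicate 3 and Su(z)12 replicate 1, and Psc replicate 3 against the same input as Su(z)12 replicate 2. These pairings are read only from the input titles of both treatments. Peak names in the Psc lists carry replicate numbers 2, 5 and 1 for replicates 1, 2 and 3 of each treatment. That differs from the titles and was not resolved. The inputs titled for rump depletion carry GFP dsRNA as their treatment label. This disagreement bears on every rumpRNAi fold enrichment and was not resolved here.

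As shares of each list, Psc peaks at E(z) made up 78.9%, 69.6% and 66.4% in rumpRNAi replicates 1 to 3, against 26.7%, 33.6% and 31.7% in the controls. The difference of the means was 41.0 percentage points (exact permutation p = 0.10, adjusted p = 0.42 over 7 partners), and with lists of equal length it was 9.21 points with the groups still apart. Each list was set against partner regions called in its own treatment, so differences in E(z) calls enter these values. E(z) calls in rumpRNAi and control lay at 193 and 183 of 218 kept regions, and at 3 and 5 of 50 lost regions. Psc peaks at Ph made up 96.6%, 91.0% and 98.4% of the rumpRNAi lists, against 60.3%, 67.4% and 96.9% of the control lists, and those at Pho 96.9%, 92.5% and 98.1%, against 61.4%, 68.9% and 97.0%. Here control replicate 3 lay among the rumpRNAi libraries, so the groups overlapped (exact permutation p = 0.30 for each). Both shares were higher in rumpRNAi in 3 of 3 pairs of equal replicate number (exact sign-flip permutation p = 0.25). Psc peaks at H3K27me3 made up 84.5%, 80.4% and 72.0% of the rumpRNAi lists, against 89.4%, 86.9% and 56.0% of the control lists (exact permutation p = 1.0). For Su(z)12, Crol and Cg the means were 25.3, 11.6 and 21.9 points higher in rumpRNAi, with overlapping groups. Cut to equal length, the lists gave differences of -1.24 points for Ph, -5.49 for Crol and -6.83 for H3K27me3.

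The same contrast was seen from sites that Psc peaks did not choose. Ph regions that overlapped a Pho region, each in at least 3 of 6 lists, gave 2003 sites. Psc had a peak at 14.2%, 16.2% and 16.9% of them in rumpRNAi replicates 1 to 3, against 25.4%, 22.8% and 37.7% in control replicates 1 to 3, with a difference of the means of -12.9 points (exact permutation p = 0.10). At the 243 sites inside H3K27me3 with E(z), Psc was listed at 217, 222 and 209 sites (89.3%, 91.4% and 86.0%) in rumpRNAi and at 243, 239 and 240 of the 243 sites in control libraries. At the 446 sites inside H3K27me3 without E(z), Psc was listed at 7.85%, 13.9% and 8.74% in rumpRNAi and at 43.7%, 34.3% and 42.6% in control libraries. In both sets the groups did not overlap, and the differences of the means were -10.2 and -30.0 points (exact permutation p = 0.10 and adjusted p = 0.15 over 3 sets for each). At the 1314 sites outside H3K27me3 the shares were 2.51%, 3.12% and 6.93% in rumpRNAi, against 5.40%, 4.95% and 24.8% in the controls, where only control replicate 3 stood above the rumpRNAi libraries. Over all sites, 48 (2.4%) had Psc in all control and no rumpRNAi lists, 35 of them inside H3K27me3 without E(z). Psc was in all 6 lists at 193 sites inside H3K27me3 with E(z), 16 inside without E(z) and 18 outside. With lists of equal length the difference was -1.30 points over all sites and -5.83 points at sites in H3K27me3 without E(z), where rumpRNAi shares of 7.85% to 8.97% still lay below control shares of 9.42% to 17.9%. At sites with E(z) the equal-length difference was -4.39 points with overlapping groups (exact permutation p = 0.30), and outside H3K27me3 it was 0.81 points (exact permutation p = 0.50).

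**Figure D3:**
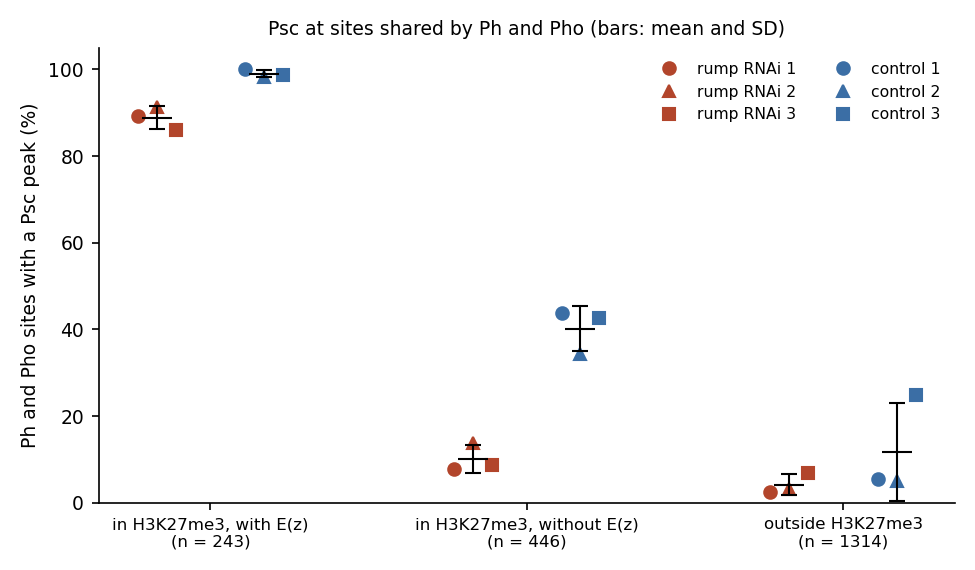
Share of Ph and Pho sites with a Psc peak (percent, vertical axis) in each library, for 243 sites inside H3K27me3 with E(z), 446 inside H3K27me3 without E(z) and 1314 outside H3K27me3. Points are libraries and bars the mean and SD of 3, and the groups stand apart inside H3K27me3, by -10.2 points with E(z) and by -30.0 points without.

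At kept regions Psc stayed at the same position with somewhat lower fold enrichment. The median distance between the rumpRNAi and control summits was 19.0 bp, within 50 bp for 188 of 218 regions, and the Psc summits lay a median of 4.5 bp from the nearest Ph summit. The median fold enrichment over kept regions was 14.1, 18.7 and 11.8 in rumpRNAi replicates 1 to 3, against 17.2, 19.3 and 26.2 in the controls. On the log2 scale the medians differed by -0.50, but rumpRNAi replicate 2 lay above control replicate 1 (exact permutation p = 0.20). In 3 of 3 pairs of equal replicate number the median was lower in rumpRNAi (exact sign-flip permutation p = 0.25). The mean was lower in rumpRNAi at 200 of the 218 regions, and the libraries did not overlap at 50, lower in rumpRNAi at each of these. Width was taken from the peak of highest fold enrichment at each kept region. Its median was 652.5, 853 and 520.5 bp in rumpRNAi libraries, against 1472, 1433 and 704.5 bp in the controls. This was lower in rumpRNAi in 3 of 3 pairs (exact permutation p = 0.20 without pairing).

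Relative to the median of each library, no kept region passed the test. In limma on log2 fold enrichment centred on the library median, 0 of 218 regions passed an adjusted p of 0.05 in either direction (0% called higher and 0% called lower), the lowest adjusted p was 0.374, and 15 had an unadjusted p under 0.05. The logit of the percentile in place of fold enrichment gave 0 calls, with 22 regions at an unadjusted p under 0.05. Without control replicate 2 limma called 10 regions, each higher in rumpRNAi, and without rumpRNAi replicate 1 it called 1. The centred difference ranged between -0.59 and 0.82 with a median standard error of 0.22, and 204 regions lay within 0.5 of 0. The order of the regions was much alike, with a Spearman correlation of 0.96 over 218 regions between the mean values of the 2 treatments, which describes regions and not replicates.

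The regions with the lowest p were named although they did not pass. The most reduced was at the start of mid, a T-box gene of the heart and nervous system, where the fold enrichment was 11.2, 10.9 and 9.47 in rumpRNAi libraries, against 19.2, 22.9 and 25.1 in controls, a centred log2 difference of -0.59 ± 0.21 (SE, limma adjusted p = 0.546). The libraries did not overlap at mid. The others on the lower side were near lncRNA:CR43453, at ptc (the Hedgehog receptor), at svp (an orphan nuclear receptor) and near CG12684, with centred log2 differences of -0.47, -0.46, -0.43 and -0.41 and adjusted p of 0.675 to 0.690. On the higher side were 2 unplaced scaffolds, a region near CG14621 on X, one near Ppr-Y on Y and one near CG5888 on 2L, with centred log2 differences of 0.82, 0.70, 0.80, 0.64 and 0.53. Near CG14621 the fold enrichment was 10.9, 13.3 and 7.41 in rumpRNAi libraries, against 5.77, 12.3 and 8.12 in controls, which overlap before centring.

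The kept regions of highest rank were those with the highest lowest percentile over the 6 lists. The first lay at the start of Lim1 (FBgn0026411, chrX:8804809-8807893), a LIM-homeobox gene of leg and head development, with fold enrichments of 59.99, 58.5 and 47.4 in rumpRNAi libraries, against 56.6, 50.3 and 72.9 in controls. At the start of disco (chrX:16215051-16219079), a zinc finger gene of appendage development, they were 64.9, 56.9 and 42.4 in rumpRNAi, against 60.4, 50.7 and 65.5 in control libraries. At mirr (chr3L:12689634-12695918), an Iroquois homeobox gene, they were 46.7, 41.8 and 32.8 in rumpRNAi, against 44.9, 40.4 and 66.7 in control libraries. At all 3 genes the groups overlapped, and rumpRNAi replicate 3 was the lowest of the 6 libraries. Others lay near Prat2 and at Vsx1, lncRNA:CR45899 in the Antp gene, opa, disco-r and Dll, and all 9 regions named here lay at Ph inside H3K27me3 with an E(z) region in both treatments. Vsx1 is a homeobox gene of the visual system, opa is a pair-rule zinc finger gene, disco-r is the relative of disco, and Dll is the homeobox gene that starts limb development. At Dll (chr2R:24813534-24815706) the fold enrichment was 41.4, 38.5 and 30.9 in rumpRNAi, against 41.1, 31.9 and 67.6 in control libraries.

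The lost regions of highest rank included those at L, erm, Hr4, gcm2, inv, unc-4, Antp, lncRNA:CR44281 and dsx. The rank of these regions was chosen by the control values, which are given as a description. At Hr4 (chrX:1991908-1992401), the start of a nuclear receptor gene of the ecdysone response, no rumpRNAi list had a peak, against fold enrichments of 9.70, 7.16 and 15.4 in control replicates 1 to 3. At gcm2 (chr2L:9608078-9608601), a transcription factor gene of glia and hemocytes, no rumpRNAi list had a peak, against 5.66, 7.29 and 11.9 in controls. At erm (chr2L:1970156-1970938), a zinc finger gene of neural progenitors, no rumpRNAi list had a peak, against 6.63, 7.19 and 10.4 in controls. At dsx (chr3R:7962614-7963103), the sex-determination gene, no rumpRNAi list had a peak, against 6.90, 8.82 and 7.42 in controls, and this region lay outside H3K27me3. Each control value at these 4 genes was below the median for kept regions in its library. The gcm2 region was the only one of these 9 with no Ph region, and the H3K27me3 domain around gcm2 had a Psc peak in all control lists and no rumpRNAi list.

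**Figure D4:**
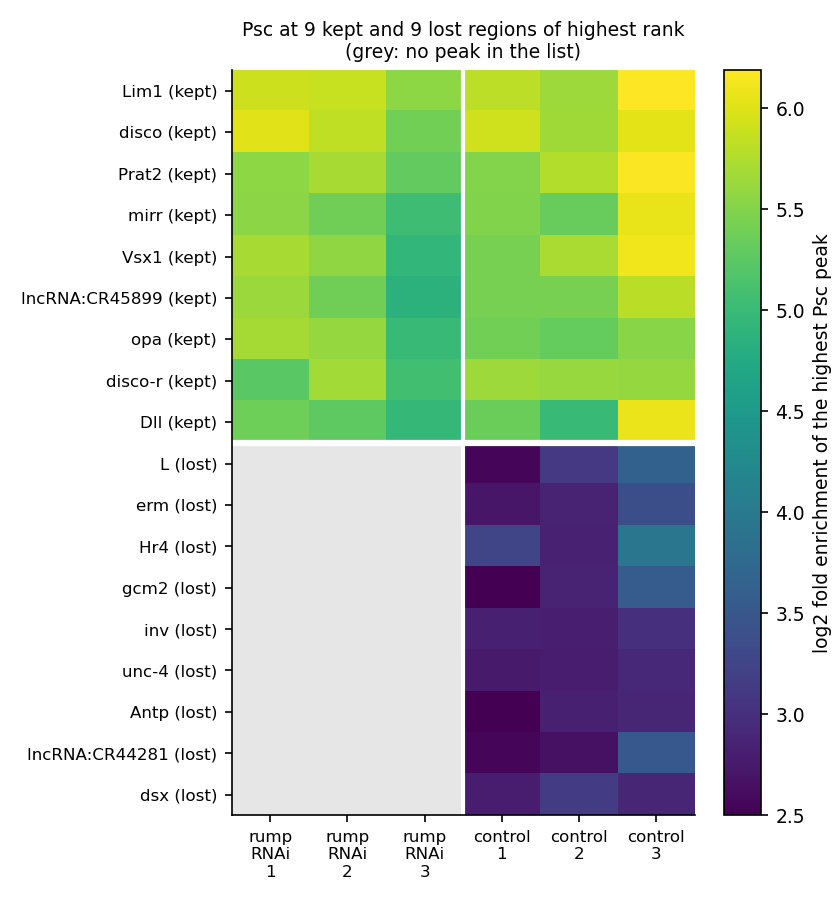
Log2 fold enrichment of the highest Psc peak (colour) in 3 rumpRNAi and 3 control libraries at 9 kept and 9 lost regions of highest rank, grey where a list has no peak. Kept regions were picked for a high percentile in every list, so a high value in both treatments follows from that choice. At each kept region shown the treatments overlap, with rumpRNAi replicate 3 below control replicate 3. The lost regions lie below the kept regions shown in all 3 control libraries.

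At Ubx and abd-A a kept Psc region had higher fold enrichment in controls than the lost one. The lost regions lay 28819 bp (Ubx) and 2515 bp (abd-A) from the nearest kept region. In the bithorax complex (Ubx, abd-A and Abd-B, which set the identity of posterior segments), 4 of 30 regions were kept and 22 had peaks in control lists only, 2 of these being lost. Over all 1321 regions, 218 were kept and 867 had peaks in control lists only, 50 of these being lost. The kept Ubx region in an intron (chr3R:16702019-16703805) had fold enrichments of 29.9, 33.8 and 22.3 in rumpRNAi libraries, against 28, 34.8 and 44.9 in controls. The lost Ubx region over an exon (chr3R:16732625-16733275) had no peak in rumpRNAi, against 6.79, 5.98 and 6.09 in control libraries. At abd-A the region over a gene start (chr3R:16828878-16830787) stayed at 17.5, 28.4 and 11.5 in rumpRNAi, against 19.2, 28.2 and 34.0 in controls, while a nearby region over an exon (chr3R:16825962-16826362) had no peak in rumpRNAi, against 4.85, 6.85 and 6.70 in controls. The groups overlapped at each of these kept regions. Abd-B had kept intronic regions at chr3R:16947956-16950113 and chr3R:16969090-16970732, the first with 27, 34.8 and 24.4 in rumpRNAi, against 23.7, 36 and 48.1 in controls.

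In the Antennapedia complex, whose homeotic genes pattern the head and anterior thorax, each of lab, pb, Dfd, Scr and Antp held a kept region, 6 of 17 regions in all, with 1 lost in an Antp intron. The early genes of the complex, zen2, zen, bcd and ftz, had no Psc region. At lab (chr3R:6677176-6679756) the fold enrichment was 14.2, 15.8 and 9.40 in rumpRNAi, against 22.8, 16.6 and 31.7 in control libraries. These groups did not overlap at lab. At Scr (chr3R:6847829-6850799) they did, with 12.2, 15.0 and 12.2 in rumpRNAi, against 13.9, 15.0 and 25.8 in controls.

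At the engrailed locus a kept region covered the start of each of the paired segment-polarity genes en and inv, and a region 527 bp from the kept inv region was lost (chr2R:11471885-11472549, no peak in rumpRNAi, against 7.11, 7.04 and 8.04 in controls). At the start of en (chr2R:11525505-11530479) the fold enrichment was 18.6, 19.6 and 13.8 in rumpRNAi, against 21.9, 20.2 and 39.4 in control libraries. The peak of highest fold enrichment there was 861, 2392 and 422 bp wide in rumpRNAi, against 4857, 4374 and 1602 bp in controls. In the NK cluster of homeobox genes tin, lbe, lbl and C15 held kept regions, slou held regions but none kept, and the lost region lay 173 bp from the kept one at tin (chr3R:21379660-21380887). The Iroquois genes ara, caup and mirr each held 1 kept region, with 14 of the 19 regions there in control lists only and 0 lost. Over all 1321 regions, 867 were in control lists only. The single region within wg, the founding Wnt gene, or its upstream window was kept, with 24.5, 27.6 and 23.5 in rumpRNAi, against 21.5, 26.9 and 52 in control libraries. An intergenic region 4349 bp from the start of wg (chr2L:7302451-7302810) was lost, with no peak in rumpRNAi, against 5.66, 5.08 and 8.47 in controls. The genes Wnt2, Wnt4, Wnt5, Wnt6 and Wnt10 had no Psc region.

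Of 19 segmentation genes looked up (h had no match by symbol and was not examined), 15 held a Psc region and 7 a kept one, these being eve, slp2, opa, knrl, cad, ptc and gsb. At odd, run, slp1, prd, kni, hkb, hh and gsb-n no region was kept. The eve region (chr2R:9977879-9981189) had 23.5, 24.2 and 21.0 in rumpRNAi, against 34.3, 23.4 and 57.5 in control libraries, which overlap. Of 44 genes of limb, eye and body patterning, 40 held a Psc region and 35 a kept one, with 42 of 139 regions kept and 79 in control lists only, 6 of these being lost. Of 18 neural and mesodermal fate genes, 9 held a region and 5 a kept one. SoxN, a Sox gene of the early nervous system, had a kept region at its start (chr2L:8824593-8826600, 17.3, 20.2 and 22.4 in rumpRNAi, against 25.9, 22.2 and 48.8 in controls) and 2 lost regions beside it. The shares kept in these lists can be read against 16.5% of all regions, and the shares lost against 3.79%. Those in control lists only can be read against 867 of all 1321 regions. The lists were drawn up with Polycomb targets in mind.

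Polycomb genes were themselves among the Psc sites. Psc and its relative Su(z)2 share a domain of H3K27me3 with kept regions at both gene starts. At Psc (chr2R:12979317-12982121) the fold enrichment was 17.3, 21.2 and 19.2 in rumpRNAi, against 20.7, 22.8 and 33.3 in control libraries, which overlap. At Su(z)2 (chr2R:12995431-12997987) it was 23, 23.9 and 18.8 in rumpRNAi, against 18.5, 20.6 and 36.1 in controls, and a lost region lay 469 bp further on. The paired genes of the Polyhomeotic proteins, ph-d and ph-p, lay outside H3K27me3. The ph-d region (chrX:2123084-2124892) was kept at 7.76, 10.7 and 7.26 in rumpRNAi, against 9.69, 10.9 and 18.1 in controls, whereas the ph-p region at chrX:2136575-2137371 had 8.60 and 7.57 in rumpRNAi replicates 2 and 3 and no peak in replicate 1, against 7.32, 9.34 and 16.7 in controls. Among 8 genes of PRC2 and its cofactors only jing had a region, which was kept, and among 10 genes of PRE-binding proteins looked up only grh had any.

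Of 17 hemocyte genes, here only as places in the genome, lz held 3 kept regions and 1 lost, and srp, ush, gcm2 and drpr held regions of which none was kept. Lz is the Runx factor of crystal cells. Its start region (chrX:9283553-9285404) had 17.8, 37.1 and 18.8 in rumpRNAi, against 19.3, 27.8 and 38.9 in control libraries. Of 19 ecdysone response genes, br, Hr4 and ImpE1 held 7 regions, of which 0 were kept and 6 had peaks in control lists only, 2 of these being lost. Over all 1321 regions, 218 were kept and 867 had peaks in control lists only, 50 of these being lost. At the lost br region over a gene start (chrX:1611584-1612400) no rumpRNAi list had a peak, against 5.33, 8.33 and 5.35 in controls. Of 14 active housekeeping genes only TER94 had a region, in 3 control lists and 1 rumpRNAi list.

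Psc covered less of H3K27me3 domains in rumpRNAi cells. H3K27me3 regions in at least 3 of 4 lists were joined over gaps under 1 kb, which gave 259 domains of at least 2 kb. Psc had a peak in 45.9%, 50.2% and 44.8% of the domains in rumpRNAi replicates 1 to 3, against 56.0%, 55.6% and 60.2% in the controls (difference of the means -10.3 points, exact permutation p = 0.10). Psc peaks took 1.86%, 2.63% and 1.55% of the domain length in rumpRNAi, against 7.80%, 6.27% and 2.89% in the controls (exact permutation p = 0.10). A Psc peak was listed in all 6 libraries in 111 domains, in all controls and no rumpRNAi list in 10 (3.86%), and in all rumpRNAi and no control list in 0. The loss in number of domains was thus small beside the loss in length.

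The opa domain of 82.0 kb showed this most. Psc peaks there covered 5.08, 9.34 and 3.99 kb in rumpRNAi replicates 1 to 3, against 53.4, 46.5 and 5.46 kb in control replicates 1 to 3, with the highest peak at 51.4, 48.8 and 31.9 in rumpRNAi, against 42.2, 39.8 and 46.2 in controls. Control replicate 3 lay within the rumpRNAi range here. In the bithorax domain Psc covered 6.86, 10.1 and 5.03 kb in rumpRNAi, against 28.9, 26.2 and 10.3 kb in controls, and in the Antennapedia domain 7.85, 9.57 and 5.44 kb in rumpRNAi, against 22.2, 18.1 and 10.0 kb in controls. The groups were apart in these, with control replicate 3 just above rumpRNAi replicate 2. In the domain of Psc and Su(z)2 the values were 7.23, 15.2 and 6.66 kb in rumpRNAi, against 36.1, 36.3 and 11.8 kb in controls, which overlap.

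**Figure D5:**
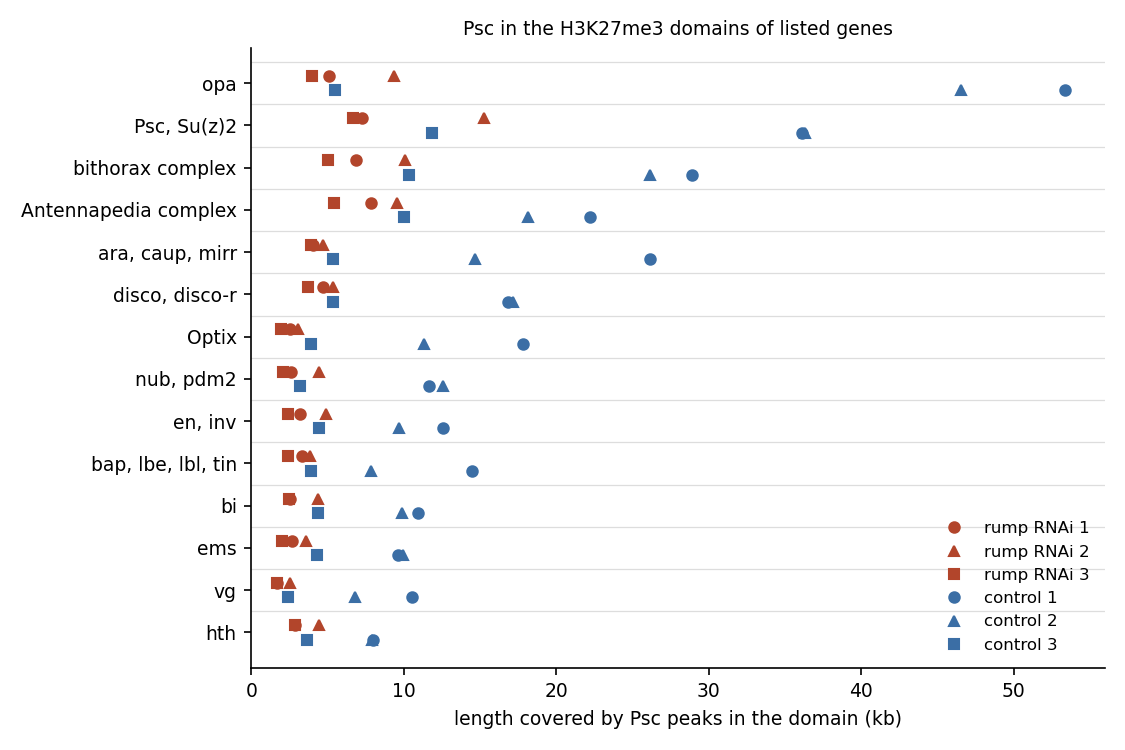
Length in kb covered by Psc peaks (horizontal axis) in the H3K27me3 domains of listed genes with the most Psc in controls, each point a library. For opa the rumpRNAi libraries lie at 3.99 to 9.34 kb, control replicates 1 and 2 at 53.4 and 46.5 kb and control replicate 3 at 5.46 kb.

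The similarity between whole lists gave the same picture of controls that differ. The Jaccard index, the shared length of a pair of lists over their joint length, averaged 0.53 between rumpRNAi libraries, 0.41 between control libraries and 0.33 between treatments. Within-treatment pairs exceeded between-treatment pairs by 0.14 on average (one-sided exact permutation test, p = 0.10). Control replicate 3 shared 0.32 and 0.34 with control replicates 1 and 2, and 0.41, 0.42 and 0.41 with rumpRNAi replicates 1 to 3. Off the chromosome arms, mitochondrial peaks numbered 14 in replicate 2 of each treatment, 2 in rumpRNAi replicate 1 and 0 in the other 3 libraries, and 45 of the 1321 regions lay on mitochondrial, rDNA or unplaced sequence.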

How the data were processed

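Chromatin immunoprecipitation of Psc was analysed in 3 rumpRNAi and 3 control libraries of Kc167 cells, with the lists of Ph, Pho, E(z), Su(z)12, Crol, Cg (3 libraries each per treatment) and H3K27me3 (2 each) as partners. Per the submitters' processing notes and, for the filters, the study's methods, trimming used Trim Galore 0.6.7, alignment to dm6 used Bowtie2 2.5.3, alignments with mapping quality under 20, rRNA reads and duplicates were removed (SAMtools, given as 1.12 in the notes and as another version in the methods, and Picard), and MACS2 2.2.7.1 was run by the authors on each replicate against an input. The deposited lists give a fold enrichment over input (a ratio), -log10 p and -log10 q, and a score of 10 times -log10 q, all as the authors' caller wrote them. They hold no read counts, so depth is unknown and no counting interval could be given.

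Overlapping peaks (1 bp or more) were joined into regions. A partner was present in a treatment when called in at least 2 of its libraries there. Library values were compared by exact permutation of the 6 libraries, 2-sided unless stated, which cannot go below p = 0.1. Log2 fold enrichment at kept regions, centred on each library's median, was compared with limma 3.58.1 (R 4.3.3, Benjamini-Hochberg adjustment, threshold 0.05), which was tested on simulated data. Genes came from Ensembl release 115 (a gene or 2 kb upstream) and sequences from RefSeq, both of the same assembly as the peaks. Other steps used Python 3.11.15, pandas 2.3.3 and scipy 1.17.1. Each region took the name of the gene whose start lay closest. Those named were the 10 kept and 10 lost regions whose lowest percentile was highest, the 5 kept regions of lowest limma p in each direction, and regions at the 187 genes of 15 lists. Not every region at a listed gene is described singly, and the others are given as counts. Of the 20 kept and lost regions named by rank, 2 are not reported here. The members, rules and lists were chosen with earlier results of these data known.

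Equal replicate numbers paired the libraries by their values. The correlation of deviations from the treatment means was 0.44, 0.44 and 0.37 for equal numbers and between -0.31 and -0.12 for others. Alternatives were lists of equal length (322 peaks), -log10 q of at least 10, each library left out, other overlap and partner rules, the replicate block, no centring and percentiles in place of fold enrichment. Lists of other targets were not used here.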

Additional observations from a re-analysis of the deposited data

How the results depend on the processing

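Of 215 alternative values for 20 results, 193 neither reversed nor moved, 14 reversed and 8 counts moved. The permutation tests could not pass the threshold in any setting, so their side of it was fixed beforehand. The share at Pho, among the 193, differed by 0 points with lists of equal length. Psc peak number, covered length, the share of Ph and Pho sites with Psc and the share of Psc peaks at E(z) kept their direction in each alternative run. Leaving out 1 library gave log2 differences of -1.25 to -1.08 in peak number, and -0.15 to 0.17 in median peak width, differences of -9.18 to 7.55 points in the share at H3K27me3, 55 to 148 lost, 0 to 1 gained and 218 to 252 kept regions, and 0 to 10 kept regions called by limma. Fewer lists make the rule for lost regions easier to meet. With lists of equal length 2 regions were lost, the log2 difference in median width was -0.77, the shares differed by -1.24 points at Ph, -5.49 at Crol, -1.24 at Cg and -6.83 at H3K27me3, and peaks with Ph outside H3K27me3 by 12.7. The width difference was -0.082 at a -log10 q of at least 10. Among alternatives chosen after seeing the data, it was -0.79 at kept regions and -0.23 for peaks at Ph, where the share at Crol differed by -2.66 points. Summits within 300 bp gave 1 gained region. The cause of these shifts was not tested. With the replicate block the paired difference in peak number was -1.17 (exact sign-flip permutation p = 0.25, the smallest 3 pairs allow), limma called 0 regions, and no other call changed. Depth is unknown, and 3 libraries against 3 cannot reach p = 0.05.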
